A study of Arabidopsis thaliana with 9 samples.

Results

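Transcript levels in vtc2-1 seedlings were compared with those in the wild type Col-0 of Arabidopsis thaliana, and the differences were described by functional class. The comparison was chosen by genotype alone and used 6 of the 9 arrays of the study, 3 of vtc2-1 and 3 of Col-0, each a hybridisation of total RNA from whole seedlings to an Affymetrix ATH1 array. The labels give vtc2-1 as an EMS-induced mutant in the Col-0 background, so both groups share that background apart from the vtc2-1 allele and whatever other EMS changes that line still carries. All seedlings were 14 days old, at the stage of 4 rosette leaves, and had grown on agar plates with minimal nutrients after cold treatment of the seeds in the dark. The remaining 3 arrays, of the mutant vtc1-1, entered the comparison only through the shared estimate of the spread. Their mean signal is given for the only probe set called with all arrays. No label tells whether the replicates were sown or harvested apart, and p-values thus cover only the spread among these samples, which may be technical.

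As background, VTC2 encodes GDP-L-galactose phosphorylase, which commits GDP-L-galactose to the main plant route to ascorbate (vitamin C), and plants with a defect in it hold less ascorbate than the wild type. Ascorbate is the electron donor of the ascorbate peroxidases, which remove hydrogen peroxide in the ascorbate-glutathione cycle, and it keeps the iron of 2-oxoglutarate-dependent dioxygenases reduced. It also takes part in the loosening and hardening of the cell wall, and ascorbate-deficient mutants are known for raised defence responses. The annotation used here pairs neither VTC2 nor VTC1 with a probe set, so the mutated gene could not be found by name to check the labels. Of the markers listed to check the tissue, 1 of 16 for photosynthetic shoot and 2 of 12 for root were paired with a probe set, and none of the 7 seed storage or 4 flower markers was. The shoot marker LHCB4.1, an antenna protein of photosystem II, gave signals of 5519 to 7674 in the 6 arrays, and the root markers PYK10, a beta-glucosidase, and PRX27, a peroxidase, gave 2086 to 4406 and 81.3 to 321, so that shoot and root transcripts were both present.

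Of 22810 probe sets, 14603 were tested, those above their array's 40th percentile of signal (28.3 to 30.4 in these 6 arrays) in at least 3 of the 9 arrays. With all arrays limma called 1 probe set at an adjusted p under 0.05 (0.00685% of those tested), and 6.28% reached an unadjusted p under 0.05, namely 917 probe sets, of which 534 lay higher (3.66%) and 383 lower (2.62%) in vtc2-1. When Col-0 replicate 3 was left out, 122 were called (0.835%), 80 higher (0.548%) and 42 lower (0.288%). When both replicate 3 arrays were left out, 116 were called (0.794%), 90 higher (0.616%) and 26 lower (0.178%). Of these, 72 were in both lists, 59.0% of the first and 62.1% of the second, and both lists rest on the same Col-0 replicates 1 and 2. Without vtc2-1 replicate 3 alone, 1 was called. The third arrays also stood apart within their genotypes. Col-0 replicate 3 was over 2-fold above the mean of the other Col-0 arrays at 976 probe sets (6.68%) and over 2-fold below it at 467 (3.2%), while vtc2-1 replicate 3 was over 2-fold above the other vtc2-1 arrays at 441 (3.02%) and below at 484 (3.31%). The 191 probe sets high in both were 19.6% of the Col-0 list and 43.3% of the vtc2-1 list, and the 47 low in both were 10.1% and 9.71%. Class medians are therefore given in 4 fits, with all arrays, without Col-0 replicate 3, without vtc2-1 replicate 3 and without both. Which of these arrays represents its genotype was not tested.

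Members of 48 functional classes were listed, and 31 classes had at least 5 tested members. A class value is the median over its tested members, and a departure is the log2 signal of replicate 3 minus the mean of the other arrays of its genotype. With all arrays, 19 of the 31 class medians lay above 0, and the median of all tested probe sets was 0.01 on the log2 scale of vtc2-1 over Col-0. Without Col-0 replicate 3 the sign turned in 6 of the 31, without vtc2-1 replicate 3 in 6, and without both in 10. The departure of Col-0 replicate 3 was above 0.5 in 9 classes (chitinases, rapid touch and stress genes, berberine bridge enzyme-like oxidases, leucine-rich repeat receptor kinases, defensins with thionins and protease inhibitors, class III peroxidases, WRKY factors, lipid-transfer type proteins and calmodulin-like proteins) and below -0.5 in the 2 plastid-encoded classes. The departure of vtc2-1 replicate 3 was above 0.5 in 2 classes, chitinases and leucine-rich repeat receptor kinases, and below -0.5 in none. The median departure of all tested probe sets was -0.06 in Col-0 and -0.01 in vtc2-1.

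**Figure D1:**
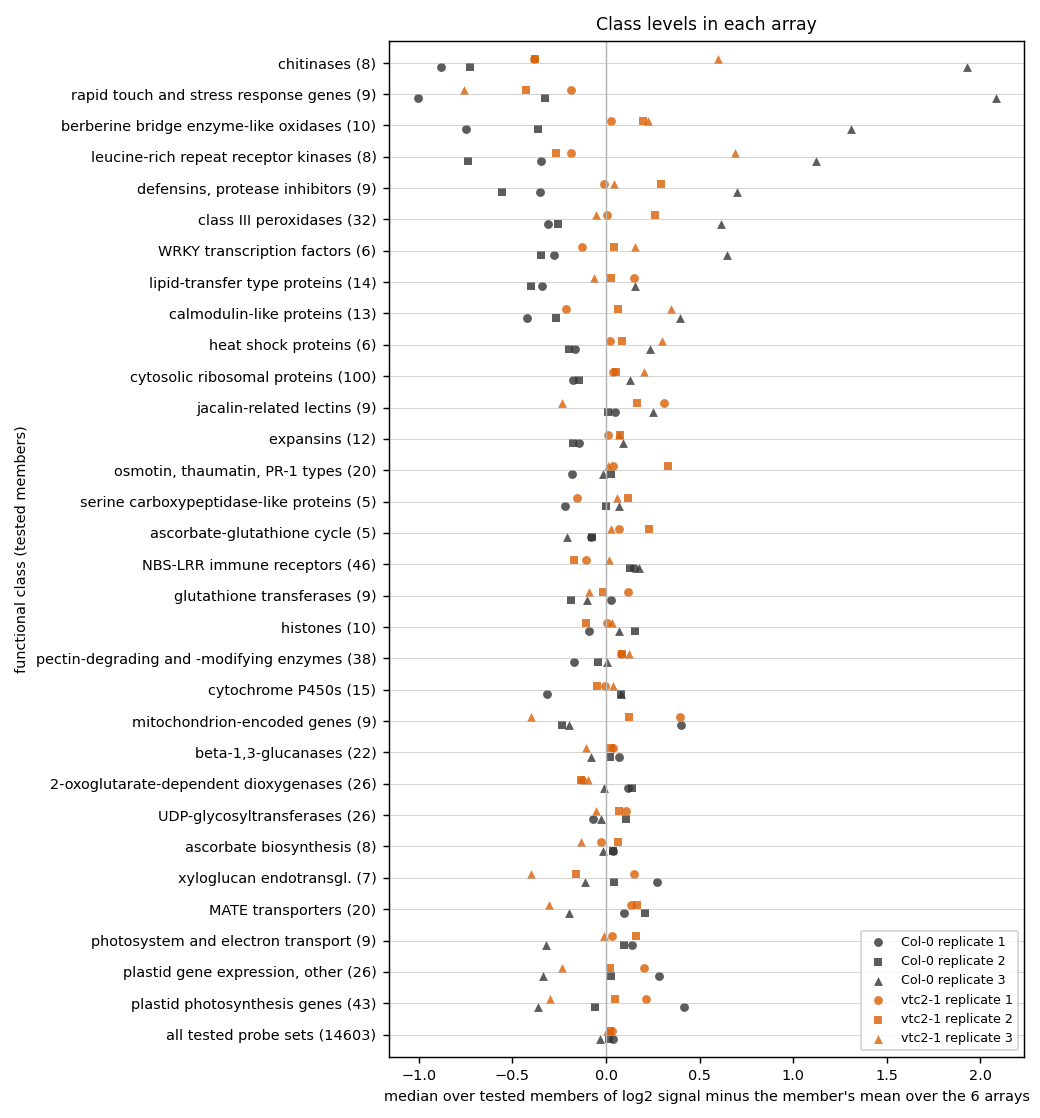
Class levels in each array: for every class with at least 5 tested members, and for all tested probe sets at the bottom, each point is 1 array's median over the members of the log2 signal minus the member's mean over the 6 arrays, with Col-0 in black, vtc2-1 in orange and the replicate as circle, square or triangle. Classes are ordered by the departure of Col-0 replicate 3, 2.86 for chitinases and 2.78 for the rapid touch and stress genes; on the plotted scale that array lay at 1.93 and 2.08 in these classes, while the 6 arrays lay between -0.04 and 0.04 over all tested probe sets.

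The only call with all arrays was a probe set that the annotation pairs with no gene. Its signals were 988, 955 and 592 in Col-0 replicates 1, 2 and 3 and 218, 195 and 243 in vtc2-1, in the same order, which is the order of all signals below. The groups did not overlap, and the log2 difference of vtc2-1 minus Col-0 was -1.92 ± 0.21 (SE, n = 3 arrays a group; limma adjusted p = 0.00975). It fell by 2.24 ± 0.18 without both replicate 3 arrays. It missed the threshold without Col-0 replicate 2, vtc2-1 replicate 1 or vtc2-1 replicate 2 (limma adjusted p = 0.123, 0.0977 and 0.134), with the size between -1.79 and -2.16 when any 1 array of these genotypes was left out. The mean signal of this probe set was 1107 (SD 195) in vtc1-1, against 845 in Col-0 and 219 in vtc2-1. The low signal was thus seen in vtc2-1 and not in the other mutant. Which gene this probe set measures, and whether it is VTC2, was not tested. All genes named from here on missed the threshold with all arrays. Some passed it in a fit with fewer arrays, which is then said.

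Ascorbate biosynthesis had 10 members with a probe set, of which 8 were tested, and 1 of them separated the groups. GME, the GDP-mannose epimerase that makes the substrate of VTC2, had signals of 1074, 1066 and 788 in Col-0 and 636, 591 and 665 in vtc2-1. All vtc2-1 arrays lay below all Col-0 arrays, as at 4.52% of the tested probe sets, and the log2 difference was -0.62 ± 0.15 with all arrays (limma adjusted p = 0.674). GME fell by 0.76 ± 0.13 in the fit lacking Col-0 replicate 3 (limma adjusted p = 0.0266) and by 0.80 ± 0.14 without both replicate 3 arrays (limma adjusted p = 0.0171). PMM, the phosphomannomutase upstream in the route, had signals of 288, 297 and 439 in Col-0 and 395, 421 and 456 in vtc2-1, and only Col-0 replicate 3 reached the vtc2-1 levels. VTC4, the L-galactose-1-phosphate phosphatase downstream of VTC2, had 203, 219 and 154 in Col-0 and 250, 274 and 208 in vtc2-1, with a log2 difference of 0.35 ± 0.21. The last steps showed overlapping groups: AT4G33670, the L-galactose dehydrogenase, differed by -0.14 ± 0.15 and GLDH, the mitochondrial L-galactono-1,4-lactone dehydrogenase, by 0.10 ± 0.31. AT1G74910, which resembles GDP-mannose pyrophosphorylase, differed by -0.16 ± 0.18. AT2G04650, of the same type, had signals of 25.2 to 35.9 over the 6 arrays and AT2G40860, the gene known as VTC3, had 17.5 to 40.7, with overlapping groups. The class median was -0.01 with all arrays, -0.10 without Col-0 replicate 3 and -0.04 in the other 2 fits, and 4 of the 8 members lay above 0.

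All 5 tested members of the ascorbate-glutathione cycle had values above 0, where 51.9% of all tested probe sets did, as had 4 of the 5 without both replicate 3 arrays, and none passed in any of the 4 fits. The class median was 0.17 with all arrays and 0.19, 0.25 and 0.26 without Col-0 replicate 3, without vtc2-1 replicate 3 and without both. SAPX, the stromal ascorbate peroxidase, had signals of 135, 138 and 144 in Col-0 and 166, 215 and 221 in vtc2-1. Its groups did not overlap, as at 6.27% of the tested probe sets in this direction, and the log2 difference was 0.52 ± 0.24. TAPX, the thylakoid enzyme of the same family, had 304, 338 and 187 in Col-0 and 246, 337 and 233 in vtc2-1, which overlap. The glutathione reductases GR1 and GR, which renew glutathione for the cycle, differed by 0.17 ± 0.17 and 0.21 ± 0.17.

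The 2-oxoglutarate-dependent dioxygenases lay lower in vtc2-1 on the median, by -0.17 with all arrays and between -0.19 and -0.25 in the other 3 fits. Of 26 tested members, 8 had values above 0, and 1 of 26 had an unadjusted p under 0.05 in this direction (2.62% of all tested). AT1G35190 had signals of 158, 158 and 148 in Col-0 and 118, 116 and 130 in vtc2-1, with no overlap, and a log2 difference of -0.35 ± 0.16. AT1G78550 had 45.8, 59.5 and 47.8 against 39.2, 32.7 and 35.8, also with no overlap. AT5G05600, an oxygenase that inactivates jasmonate, had 111, 103 and 59.8 against 58.3, 53.1 and 66.8, so that Col-0 replicate 3 lay with the mutant. AT3G13610, which makes scopoletin precursors, went the other way: its 667 in Col-0 replicate 3 stood above 59.4 and 108 in the other Col-0 arrays and 71.7, 102 and 108 in vtc2-1. The list of SODs, catalases and peroxiredoxins had 4 tested members, all peroxiredoxins or a copper chaperone of SOD, with no SOD or catalase among them. Of these 4 members, 3 had values above 0, and their median was 0.07 with all arrays and between 0.03 and 0.10 in the other 3 fits.

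After the chitinases, the class with the highest departure in Col-0 replicate 3 was a list of 9 genes that respond rapidly to touch, wounding and other stress. All 9 had values below 0 with all arrays and the class median was -0.59; it was 0.36 without Col-0 replicate 3, -0.54 without vtc2-1 replicate 3 and 0.39 without both. STZ, a zinc finger repressor of stress responses, had signals of 50.9, 97.4 and 1492 in Col-0 and 162, 143 and 93.8 in vtc2-1. Only Col-0 replicate 3 was high, and every vtc2-1 array but the third lay above the other Col-0 arrays. CML38, a calmodulin-like protein, had 19.7, 42.1 and 198 in Col-0 and 30.7, 46.4 and 16.1 in vtc2-1. AT3G10930 had 14.3, 17.7 and 298 in Col-0 and 34.6, 15.9 and 6.16 in vtc2-1, where most values were below the 40th percentile. In these genes vtc2-1 replicate 3 was the lowest of its genotype, and the class departure was 2.78 in Col-0 replicate 3 and -0.41 in vtc2-1 replicate 3. AT1G18740 did not follow Col-0 replicate 3 alone. Its signals of 160, 205 and 337 in Col-0 all lay above the 108, 103 and 79.7 in vtc2-1, with a log2 difference of -1.21 ± 0.24 with all arrays and -0.78 ± 0.20 without both replicate 3 arrays (limma adjusted p = 0.0938). AT5G66070 also separated the groups, with 105, 98.7 and 145 in Col-0 and 90.3, 92.7 and 94.1 in vtc2-1 and a log2 difference of -0.31 ± 0.20.

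Chitinases, which cut the chitin of fungal walls, were high in both replicate 3 arrays. Col-0 replicate 3 was over 2-fold above the other Col-0 arrays at 7 of 8 tested members (6.68% of all tested probe sets). For vtc2-1 replicate 3 this held at 4 of 8 (3.02%). The class median was -0.28 with all arrays, 0.68 without Col-0 replicate 3, -0.41 without vtc2-1 replicate 3 and 0.11 without both. AT2G43620 had signals of 20.5, 8.64 and 437 in Col-0 and 17.8, 8.49 and 298 in vtc2-1, so that the third arrays resembled each other and not their own genotype. CHI followed the same pattern, with 8.49, 12.6 and 217 in Col-0 and 5.91, 1.91 and 469 in vtc2-1. For AT2G43620 and CHI the signals of replicates 1 and 2 of either genotype were below the 40th percentile, so the sizes of their differences and departures are uncertain. AT2G43610 was high only in Col-0 replicate 3, with 99.5, 63.2 and 632 against 76.1, 82.7 and 109. ChiC, a class V chitinase, had 68.0, 94.2 and 226 in Col-0 and 184, 207 and 200.3 in vtc2-1, evenly high in the mutant. It rose by 1.3 ± 0.20 in the fit lacking Col-0 replicate 3 (limma adjusted p = 0.0157) and by 1.29 ± 0.22 without both (limma adjusted p = 0.0171). In either fit 1 of the 8 tested members was called, where 0.548% and 0.616% of all tested probe sets were called higher.

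**Figure D2:**
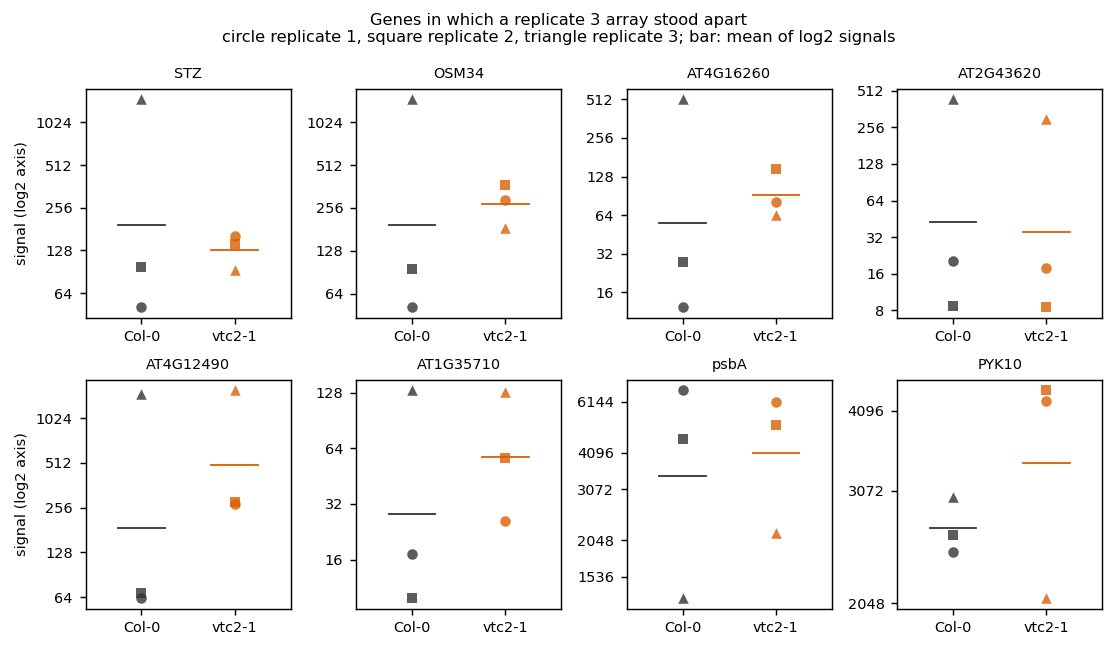
Signals of 8 genes on a log2 axis in the 3 Col-0 (black) and 3 vtc2-1 (orange) arrays, with the replicate as circle, square or triangle and a bar at the mean of the log2 signals. STZ, OSM34 and AT4G16260 were high in Col-0 replicate 3 alone; AT2G43620, AT4G12490 and AT1G35710 were high in both replicate 3 arrays; psbA was low in both; and PYK10 was low in vtc2-1 replicate 3.

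Among other secreted proteins of defence, the beta-1,3-glucanase AT4G16260 had signals of 12.2, 27.4 and 513 in Col-0 and 81.3, 146 and 64.0 in vtc2-1, and OSM34, an osmotin, had 51.4, 94.7 and 1489 against 289, 372 and 186. In either gene every vtc2-1 array lay above Col-0 replicates 1 and 2 and below Col-0 replicate 3. Without both replicate 3 arrays AT4G16260 rose by 2.57 ± 0.41 (limma adjusted p = 0.0131) and OSM34 by 2.23 ± 0.35 (limma adjusted p = 0.0111). For AT4G16260 the signals of Col-0 replicates 1 and 2 were below the 40th percentile, so the size of its rise is uncertain. Over the whole classes, the median of 22 beta-1,3-glucanases was 0.06 with all arrays and between -0.05 and 0.0020 in the other 3 fits, and that of 20 osmotin, thaumatin and PR-1 type proteins was 0.08 and between 0.07 and 0.15. AT2G27500, another beta-1,3-glucanase, lay lower in every vtc2-1 array, at 129, 142 and 188 in Col-0 and 86.0, 87.8 and 114 in vtc2-1. PR-1-LIKE, of the family of PR-1, had 1.96, 21.2 and 3.07 in Col-0 and 55.9, 47.5 and 27.8 in vtc2-1. All its Col-0 signals were below the 40th percentile, so the size of its log2 difference of 3.06 ± 0.84 is uncertain.

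Defensins, thionins and protease inhibitors had a median of 0.05 with all arrays, and of 0.70, 0.17 and 0.60 without Col-0 replicate 3, without vtc2-1 replicate 3 and without both, over 9 tested members. AT2G38870, a protease inhibitor, had signals of 160, 182 and 1176 in Col-0 and 260.1, 257 and 439 in vtc2-1. PDF1.2b, a defensin induced by jasmonate and ethylene, had 13.1, 15.7 and 18.7 in Col-0, all below the 40th percentile, and 46.0, 104 and 83.9 in vtc2-1, with no overlap. PDF1.2, a defensin of the same class, did overlap, with 28.9, 3.11 and 27.1 in Col-0 and 6.39, 38.9 and 39.7 in vtc2-1. Its log2 difference was 0.67 ± 0.90. PDF1.4 was high in both replicate 3 arrays, with 52.8, 46.1 and 177 in Col-0 and 36.4, 34.6 and 129 in vtc2-1. THI2.2, a thionin, was lowest in Col-0 replicate 3 of its genotype, with 289, 198 and 56.7 against 167, 53.5 and 77.8. The 14 lipid-transfer type proteins had medians of 0.27, 0.54, 0.35 and 0.30 with all arrays, without Col-0 replicate 3, without vtc2-1 replicate 3 and without both. AT4G12490 had signals of 62.7, 68.5 and 1495 in Col-0 and 272, 280.3 and 1573 in vtc2-1, and it rose by 2.07 ± 0.18 without both replicate 3 arrays (limma adjusted p = 9.89e-05). AT3G18280 had 176, 175 and 364 in Col-0 and 369, 442 and 418 in vtc2-1, and rose by 1.2 ± 0.17 in that fit (limma adjusted p = 0.00429). In AT3G18280 Col-0 replicate 3 fell just short of the lowest vtc2-1 array.

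Of the 9 classes that were high in Col-0 replicate 3, the class III peroxidases had the most tested members. These 32 use or produce hydrogen peroxide in the cell wall. Of them, 16 were over 2-fold higher in Col-0 replicate 3 than in the other Col-0 arrays (6.68% of all tested probe sets). None of the 32 was over 2-fold lower (3.2%). Their median difference was 0.03 with all arrays, 0.40 without Col-0 replicate 3, 0.13 without vtc2-1 replicate 3 and 0.48 without both. AT4G36430 had signals of 42.1, 47.9 and 121 in Col-0 and 162, 168 and 138 in vtc2-1, and AT3G21770 had 130, 146 and 273 against 327, 396 and 285. Both separated the groups with all arrays, Col-0 replicate 3 lying just below the lowest vtc2-1 array, and their log2 differences were 1.31 ± 0.32 and 0.95 ± 0.27. Without Col-0 replicate 3 they rose by 1.79 ± 0.20 and 1.27 ± 0.22 (limma adjusted p = 0.00301 and 0.0260). They were the 2 called members of the 32, where 0.548% of all tested probe sets were called higher in that fit. AT5G64120 was high in both replicate 3 arrays, with 129, 156 and 1376 in Col-0 and 256, 231 and 860 in vtc2-1. AT1G30870 had 17.2, 34.7 and 98.9 in Col-0 and 57.1, 89.3 and 8.47 in vtc2-1, with a log2 difference of -0.15 ± 0.76 with all arrays. It was 0.52 without Col-0 replicate 3, 0.88 without vtc2-1 replicate 3 and 1.55 ± 0.38 without both (limma adjusted p = 0.0793).

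The berberine bridge enzyme-like oxidases, flavoenzymes of which some act in defence and in the recycling of wall oligosaccharides, had medians of 0.21 with all arrays, 0.61 without Col-0 replicate 3, 0.30 without vtc2-1 replicate 3 and 0.67 without both, over 10 tested members. AT5G44400 had signals of 55.3, 84.8 and 107 in Col-0 and 163, 166 and 170.0 in vtc2-1, with no overlap and little spread in the mutant. It rose by 1.28 ± 0.24 without Col-0 replicate 3 and by 1.26 ± 0.26 without both (limma adjusted p = 0.0307 and 0.0460). AT5G44410, its neighbour in locus number, had 38.5, 51.5 and 29.9 against 56.3, 58.8 and 57.3. AT1G26380 went the other way, with 12.8, 12.8 and 239.5 in Col-0 and 3.93, 3.88 and 24.7 in vtc2-1, all vtc2-1 signals being below the 40th percentile.

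Receptors were listed as 2 classes, surface kinases, which were not selected for a role in immunity, and intracellular immune receptors. The 8 tested leucine-rich repeat receptor kinases had a departure of 1.74 in Col-0 replicate 3 and 1.07 in vtc2-1 replicate 3, and medians of 0.08 with all arrays, 0.66 without the former, -0.0029 without the latter and 0.34 without both. AT1G35710 had signals of 17.3, 9.89 and 131 in Col-0 and 25.8, 56.8 and 128 in vtc2-1. AT4G08850, a brighter member, had 288, 260.1 and 573 against 245, 245 and 418. The intracellular NBS-LRR immune receptors, which detect pathogen effectors, had departures of 0.07 and 0.05. Their median was -0.13 with all arrays and -0.18, -0.24 and -0.15 in the other 3 fits, and 12 of 46 tested members had values above 0. In 9 of the 46 all vtc2-1 arrays lay below all Col-0 arrays (4.52% of all tested) and in none above (6.27%). These 46 are the brighter part of 100 members with a probe set. With no filter on low signals, dim members included, the class median was -0.11. It was -0.38 with the 60th percentile filter. The sizes of differences in the dim members are uncertain.

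AT3G44630, an NBS-LRR receptor, had signals of 164, 139 and 138 in Col-0 and 83.3, 89.3 and 91.8 in vtc2-1, and a log2 difference of -0.73 ± 0.16 that was -0.80 ± 0.20 without both replicate 3 arrays (limma adjusted p = 0.611 and 0.0914). AT5G46450 had 85.0, 91.4 and 83.3 against 56.0, 71.1 and 54.3, and AT1G72940 had 53.5, 85.4 and 168 against 51.5, 42.3 and 32.7. In these 3 genes no arrays overlapped. AT4G19530 had 485, 500.4 and 249 in Col-0 and 329, 257 and 244 in vtc2-1, so that Col-0 replicate 3 lay at the mutant level. It fell by 0.85 ± 0.17 without that array (limma adjusted p = 0.0423). It was the only called member of the class in that fit, where 0.288% of all tested probe sets were called lower. Without both replicate 3 arrays it missed the threshold (limma adjusted p = 0.0665), and no member was called. With all arrays AT1G72920 ran against the class, with 3.82, 16.8 and 105 in Col-0 and 31.3, 38.9 and 28.0 in vtc2-1. Its signals in Col-0 replicates 1 and 2 and vtc2-1 replicate 3 were below the 40th percentile. Its difference ran from -0.37 to 2.12 when arrays were left out, so its size and direction are uncertain.

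Among regulators, the 6 tested WRKY transcription factors had a median of 0.07 with all arrays, 0.32 without Col-0 replicate 3, 0.02 without vtc2-1 replicate 3 and 0.23 without both, and the 13 calmodulin-like proteins had -0.01, 0.37, -0.13 and 0.21. WRKY53, a regulator of senescence and defence, had signals of 14.7, 20.3 and 239 in Col-0 and 17.7, 33.3 and 60.2 in vtc2-1. AT2G41090, a calmodulin-like protein, had 343, 377 and 1667 in Col-0 and 644, 1124 and 2541 in vtc2-1. Within either genotype replicate 3 was the highest, and in the remaining arrays vtc2-1 lay above Col-0, by 1.24 ± 0.22 without both (limma adjusted p = 0.0194).

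**Figure D3:**
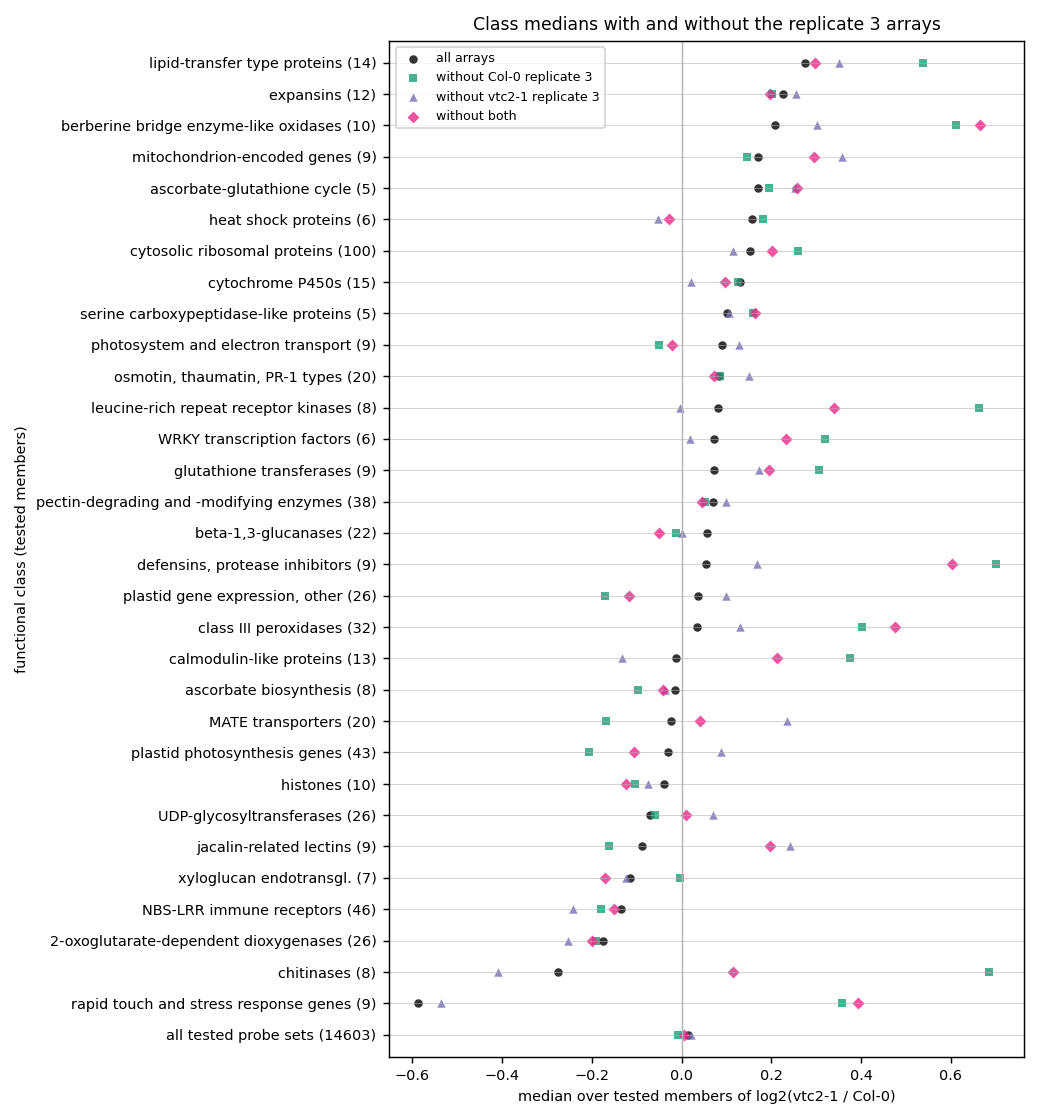
Class medians of log2 vtc2-1 over Col-0 with all arrays (circles), without Col-0 replicate 3 (squares), without vtc2-1 replicate 3 (triangles) and without both (diamonds), for classes with at least 5 tested members. Chitinases ran from -0.41 to 0.68 and the rapid touch and stress genes from -0.59 to 0.39, while cytosolic ribosomal proteins stayed between 0.12 and 0.26 and NBS-LRR immune receptors between -0.24 and -0.13.

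A further set of genes was low in vtc2-1 replicate 3. PYK10, the main beta-glucosidase of endoplasmic reticulum bodies and a root marker, had signals of 2465, 2623 and 3001 in Col-0 and 4238, 4406 and 2086 in vtc2-1. It rose by 0.77 ± 0.15 without both replicate 3 arrays (limma adjusted p = 0.0395) but not without Col-0 replicate 3 alone (limma adjusted p = 0.472), and differed by 0.34 ± 0.25 with all arrays. JAL33, a jacalin-related lectin that associates with PYK10, had 1096, 1067 and 1456 against 1697, 1189.7 and 416. The other measured root marker, PRX27, had 81.3, 161 and 287 against 223, 321 and 145, so both root markers were lowest in vtc2-1 replicate 3 among the vtc2-1 arrays and highest in Col-0 replicate 3 among the Col-0 arrays. How far the amount of root in each sample entered these values was not tested, and in whole seedlings fewer cells of a type and less RNA per cell cannot be told apart. NAI1, the transcription factor that drives endoplasmic reticulum body formation, lay in the other direction from PYK10. It had 83.7, 93.7 and 91.1 in Col-0 and 75.0, 72.3 and 50.1 in vtc2-1, lower in every mutant array. AT1G52100, another jacalin-related lectin, had 136, 237 and 93.2 in Col-0 and 92.9, 60.3 and 41.0 in vtc2-1, and it fell by 1.55 ± 0.31 in the fit lacking Col-0 replicate 3 (limma adjusted p = 0.0411) but not without both (limma adjusted p = 0.0531). The median of the 9 lectins was -0.09 with all arrays, -0.16 without Col-0 replicate 3, 0.24 without vtc2-1 replicate 3 and 0.20 without both.

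In 2 cell wall classes the 4 fits gave medians close to each other. Expansins, which loosen the wall, had medians between 0.20 and 0.25 in the 4 fits, with 3 of 12 tested members separated upwards (6.27% of all tested probe sets) and 1 downwards (4.52%). EXPA4 had signals of 126, 178 and 228 in Col-0 and 277, 283 and 337 in vtc2-1, and rose by 1.00 ± 0.20 in the fit lacking Col-0 replicate 3 (limma adjusted p = 0.0396) but not without both (limma adjusted p = 0.0665). EXPB1 had 54.0, 54.0 and 38.0 against 93.8, 68.7 and 77.8. EXLA1, an expansin-like protein, lay in the other direction, with 192, 281 and 226 in Col-0 and 113, 147 and 88.3 in vtc2-1. Among pectin enzymes, which cut or demethylate wall pectin, 7 of 38 tested members had all vtc2-1 arrays above all Col-0 arrays (6.27% of all tested) and 1 had them below (4.52%), and the median was 0.07 with all arrays and between 0.05 and 0.10 in the other 3 fits. AT5G14650, a polygalacturonase, had 13.1, 27.7 and 15.6 in Col-0, all below the 40th percentile, and 119, 168 and 76.9 in vtc2-1, the largest difference of the class at 2.70 ± 0.51. It rose in the fits without Col-0 replicate 3 and without both (limma adjusted p = 0.0470 and 0.0349). Its vtc2-1 arrays met the signal filter and no Col-0 array did, so the size of its difference is uncertain.

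The pectate lyase AT4G24780, a brighter member, had signals of 366, 418 and 578 in Col-0 and 647, 721 and 753 in vtc2-1 and rose by 0.85 ± 0.15 and 0.80 ± 0.16 in the same fits (limma adjusted p = 0.0266 and 0.0303). The pectate lyases AT3G09540 and AT3G27400 had 24.7, 27.6 and 26.0 against 67.9, 45.0 and 63.7, and 15.7, 16.9 and 41.1 against 59.8, 46.1 and 43.0. AT3G27400 rose by 1.59 ± 0.33 in the fit lacking Col-0 replicate 3 (limma adjusted p = 0.0446) but not without both (limma adjusted p = 0.0536). All Col-0 signals of AT3G09540, and those of AT3G27400 in Col-0 replicates 1 and 2, were below the 40th percentile. The sizes of the differences in these genes are thus uncertain. ATPMEPCRB, a pectin methylesterase, had 33.8, 43.8 and 250 in Col-0 and 30.4, 30.1 and 79.1 in vtc2-1, high in both replicate 3 arrays. SKU5, a wall-anchored protein of directional root growth, had 763, 1029 and 524 in Col-0 and 411, 359 and 383 in vtc2-1. It fell by 1.21 ± 0.16 without Col-0 replicate 3 and by 1.21 ± 0.17 without both (limma adjusted p = 0.00596 and 0.00527), and no arrays overlapped. XTH18, a xyloglucan endotransglucosylase, followed Col-0 replicate 3, with 33.9, 40.8 and 209 against 55.4, 52.6 and 18.4.

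**Figure D4:**
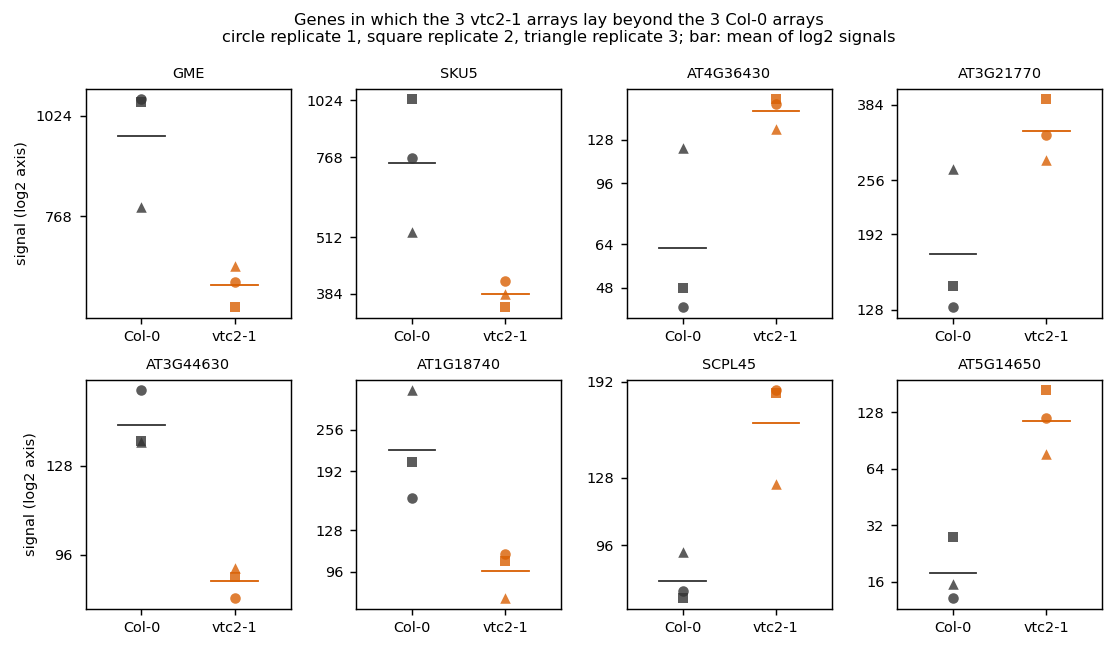
Signals of 8 genes on a log2 axis in the 3 Col-0 (black) and 3 vtc2-1 (orange) arrays, with the replicate as circle, square or triangle and a bar at the mean of the log2 signals. In GME, SKU5, AT3G44630 and AT1G18740 all vtc2-1 arrays lay below all Col-0 arrays and in AT4G36430, AT3G21770, SCPL45 and AT5G14650 above; in GME, SKU5, AT3G44630, AT4G36430, AT3G21770 and SCPL45 the Col-0 array nearest to vtc2-1 was replicate 3.

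Cytosolic ribosomal proteins were the largest class, with 100 tested members. Their median was 0.15 with all arrays and 0.26, 0.12 and 0.20 without Col-0 replicate 3, without vtc2-1 replicate 3 and without both, and 82 of 100 had values above 0, against 51.9% of all tested probe sets. The class level was -0.18, -0.15 and 0.13 in the Col-0 arrays and 0.04, 0.05 and 0.20 in vtc2-1, on the scale of log2 signal minus the mean over the 6 arrays, so Col-0 replicate 3 lay within the vtc2-1 range. All vtc2-1 arrays were above all Col-0 arrays at 10 members (6.27% of all tested) and below at 2 (4.52%). AT1G26880, a protein of the large subunit, had signals of 437, 459 and 658 in Col-0 and 679, 795 and 1124 in vtc2-1. It rose by 0.92 ± 0.20 in the fit lacking Col-0 replicate 3 (limma adjusted p = 0.0493) but not without both (limma adjusted p = 0.0691). In the former fit it was the only called member of the 100, where 0.548% of all tested probe sets were called higher. AT2G37600, also of the large subunit, had 129, 131 and 126 against 208, 162 and 189, and in that gene the third arrays lay close to the others of their genotype.

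Plastid-encoded transcripts were low in both replicate 3 arrays. The 43 plastid-encoded photosynthesis genes had departures of -0.53 in Col-0 replicate 3 and -0.35 in vtc2-1 replicate 3, and medians of -0.03 with all arrays, -0.21 without the former, 0.09 without the latter and -0.11 without both. psbA, the D1 protein of photosystem II, had signals of 6707, 4565 and 1292 in Col-0 and 6129, 5097 and 2164 in vtc2-1. psbN, of photosystem II assembly, had 452, 114 and 50.4 against 532, 282 and 165. The 26 other plastid genes had departures of -0.52 and -0.32 and medians of 0.04, -0.17, 0.10 and -0.12 in the same 4 fits. Among them rpoA, a subunit of the plastid RNA polymerase, separated the groups, with 894, 641 and 856 in Col-0 and 1614, 1141 and 931 in vtc2-1. The control probe set for 5S rRNA gave 180, 89.7 and 56.3 in Col-0 and 144, 116 and 70.4 in vtc2-1, lowest in the third arrays of either genotype, and that for 25S rRNA gave 7015, 2388 and 821 against 4542, 3595 and 4956. The part of RNA preparation or labelling in these levels was not tested.

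Among nucleus-encoded genes of photosynthesis, the 9 tested photosystem and electron transport genes had departures of -0.41 in Col-0 replicate 3 and -0.07 in vtc2-1 replicate 3, and medians of 0.09 with all arrays, -0.05 without the former, 0.13 without the latter and -0.02 without both. LHCB4.2, an antenna protein, had signals of 7578, 7557 and 4187 in Col-0 and 6540, 7042 and 5984 in vtc2-1. LHCB4.3, of the same family, ran apart from it, with 78.6, 60.6 and 88.0 against 104, 142 and 132 and no overlap. The 9 mitochondrion-encoded genes had a median of 0.17 with all arrays and between 0.15 and 0.36 in the other 3 fits, and a departure of -0.38 in vtc2-1 replicate 3.

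**Figure D5:**
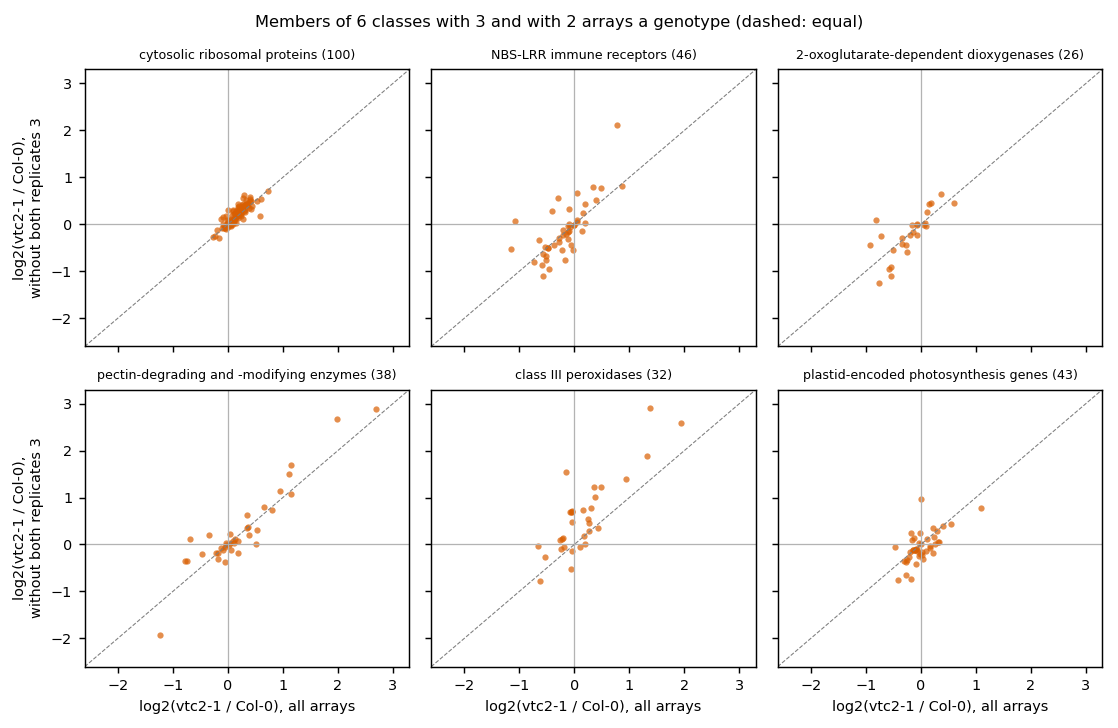
Log2 difference of vtc2-1 over Col-0 of every tested member of 6 classes with all arrays (horizontal axis) and without both replicate 3 arrays (vertical axis), with a dashed line where both are equal. Ribosomal proteins lay close to the line, mostly above 0; NBS-LRR receptors and dioxygenases lay mostly below 0 on both axes; class III peroxidases, with medians of 0.03 and 0.48, were shifted above the line.

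Smaller metabolic and stress classes gave the following values. The 4 tested cold- and dehydration-induced proteins all had values above 0, with a median of 0.75 with all arrays and between 0.89 and 1.07 in the other 3 fits. Over all 7 members with a probe set, dim ones included, the median was 0.04 with all arrays and 4 of the 7 had values above 0. COR15B, a chloroplast-protecting cold protein, had signals of 45.5, 56.7 and 52.6 in Col-0 and 92.2, 109 and 86.1 in vtc2-1, with no overlap. LTI30, a dehydrin, had 189, 268 and 463 against 439, 580 and 320.3, and rose by 1.16 ± 0.24 without both replicate 3 arrays (limma adjusted p = 0.0419) but not without Col-0 replicate 3 alone (limma adjusted p = 0.0995). The 4 tested genes known to rise in darkness and sugar starvation all had values below 0, with a median of -0.44 with all arrays and between -0.45 and -0.66 in the other fits. MCCA and MCCB, the subunits of methylcrotonyl-CoA carboxylase in leucine breakdown, had 258, 228 and 137 against 154, 129 and 114, and 159, 167 and 111 against 102, 102 and 104. IVD, of the same pathway, had 126, 160 and 128 against 105, 102 and 117. None of the 4 passed in any of the 4 fits.

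SCPL45, a serine carboxypeptidase-like protein, had signals of 79.0, 76.7 and 93.5 in Col-0 and 185, 183 and 125 in vtc2-1, and it rose by 1.05 ± 0.21 without Col-0 replicate 3 and by 1.24 ± 0.20 without both (limma adjusted p = 0.0423 and 0.0125). AT3G23550, a MATE efflux transporter, had 58.0, 77.8 and 103 against 112, 158 and 147, and rose by 1.03 ± 0.21 in the former fit (limma adjusted p = 0.0444) but not in the latter (limma adjusted p = 0.0691). The 20 tested members of its class had a median of -0.02 with all arrays, -0.17 without Col-0 replicate 3, 0.24 without vtc2-1 replicate 3 and 0.04 without both. UGT72E2, which glucosylates monolignols, had 81.0, 85.8 and 217 against 169, 215 and 130, and rose by 1.196 ± 0.22 without both (limma adjusted p = 0.0209) but not without Col-0 replicate 3 alone (limma adjusted p = 0.0541). In it the order of the genotypes reversed in the third arrays.

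Outside the classes, the genes called in both reduced fits with the largest differences are given by locus, with no role stated. AT1G76960 had signals of 4.14, 5.48 and 172 in Col-0 and 41.9, 84.1 and 363 in vtc2-1, where the first 2 Col-0 values lay below their arrays' 20th percentile of 9.48 and 8.49 and the size of the difference is uncertain. AT2G25510 had 1962, 1114 and 6448 against 2708, 6268 and 9126, highest in the third array of either genotype. On the lower side AT5G26270 had 175, 125 and 76.6 in Col-0 and 61.9, 48.7 and 37.6 in vtc2-1, AT1G10020 had 121, 120 and 66.2 against 52.1, 44.5 and 49.9, and AT1G61740 had 741, 839 and 598 against 433, 435 and 463. These 3 separated the genotypes with all arrays, and in each Col-0 replicate 3 was the Col-0 array nearest to vtc2-1. AT1G68440 and AT2G47440 had 248, 330 and 115 against 132, 131 and 91.0, and 641, 692 and 309 against 366, 369 and 331. Col-0 replicate 3 lay within the vtc2-1 range in the former and below it in the latter.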

How the data were processed

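Per the labels' protocols, RNA from entire seedlings was biotin-labelled in a one-cycle reaction and each sample was hybridised to its own 1-colour Affymetrix ATH1 array. Each deposited value is an intensity on a linear scale; the submitters' processing notes name MAS5 and GCOS, with versions that are not given in the sources used here. In the deposited intensity values each array's mean after trimming 2% at either end is 100.0, which shows scaling to a common level, so that a change in RNA content per plant cannot be seen. Detection calls were not used here. Dim MAS5 signals vary strongly after a log transform, so the sizes of differences in dim genes are uncertain.

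Genotype in the labels set the groups. The log2 of each deposited signal was taken without a pseudocount or further scaling. Tests were limited to the 14603 probe sets with signals over the 40th percentile of the array on 3 or more of the 9 arrays, leaving out 64 controls. The 3 group means were fitted to all 9 arrays with lmFit and contrasts.fit of limma 3.58.1 (R 4.3.3), moderated by eBayes with trend, and p-values were adjusted over all tested probe sets by Benjamini-Hochberg at a threshold of 0.05. The procedure was tested on simulated data with noise drawn independently for each array. That test does not cover arrays that stand apart within their genotype, as the replicate 3 arrays did here. Values after ± are the SE of the fitted limma difference with n = 3 arrays a group, or 2 in a group that leaves out an array. An exact permutation test of 3 against 3 arrays cannot go below p = 0.1, so no such test was run. Precision is limited by how few arrays there are.

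Names come from the supplied platform annotation, which lists 13513 probe sets with 1 gene, 503 with several and 8794 not listed, and symbols were updated through the TAIR10.1 gene table by gene identifier, in which 13436 matched. The brightest tested probe set stands for a gene with several. Coordinates are not given, because no file states a genome build. The classes, their members and the naming rule were chosen with earlier results of these data known. The annotation holds no gene descriptions, so the word patterns first meant to define the classes were replaced by lists of locus codes and symbols, written with the annotation at hand but before class values were computed. Classes with under 3 tested members are not described. Classes are given by counts and medians with no test.

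Named genes were every call with all arrays; in each class with at least 3 tested members up to 3 with the smallest p, up to 2 called without Col-0 replicate 3, and the member that stood farthest off in replicate 3 of either genotype; up to 8 rises and 8 falls called both without Col-0 replicate 3 and without both replicate 3 arrays; and the ascorbate biosynthesis genes. Some of these were left out of the text. Alternatives left out each array, left out both replicate 3 arrays, used a replicate block, quantile normalization, median-centring, log2 of signal plus 16, no filter or a 60th percentile filter, no intensity trend, only the 6 arrays compared, or array weights. Figures were drawn with matplotlib 3.10.9.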

Additional observations from a re-analysis of the deposited data

How the results depend on the processing

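Which arrays entered decided the number of calls. It was 1 with all arrays and ran from 0 to 122 when 1 array was left out, was 116 without both replicate 3 arrays, and was 0 with no intensity trend and 0 with only the 6 arrays compared. The count of 0 arose without Col-0 replicate 2 and without vtc2-1 replicate 1 or 2. In the 5 fits with a count of 0, limma gave 667 to 974 probe sets with an unadjusted p under 0.05. With quantile normalization, median-centring, 16 added to the signal, another filter on low signals or array weights the count was 1, as in the main fit. The replicate block left the count at 1. Same-numbered Col-0 and vtc2-1 arrays had deviations that correlated at 0.16, 0.04 and 0.20 across probe sets for numbers 1, 2 and 3, and Col-0 replicate 2 correlated best with vtc2-1 replicate 1, at 0.12, so the numbers were not taken as pairs.

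Of the 31 classes with at least 5 tested members, 10 kept the sign of their median under all 19 alternatives, among them NBS-LRR immune receptors (-0.38 to -0.11), dioxygenases (-0.25 to -0.14), the ascorbate-glutathione cycle (0.16 to 0.26), cytosolic ribosomal proteins (0.09 to 0.26), expansins (0.08 to 0.31) and pectin enzymes (0.04 to 0.13). The rapid touch and stress genes ran from -1.45 to 0.39 and the chitinases from -0.77 to 0.68. With no filter on low signals the median was 0.04 in cold- and dehydration-induced proteins (7 members against 4), 0.18 in class III peroxidases (55 against 32), -0.02 in chitinases (15 against 8), -0.08 in defensins, thionins and protease inhibitors (20 against 9) and 0.04 in lectins (21 against 9).

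Of the 88 probe sets followed through the alternatives, PDF1.2 not among them, 63 kept their sign under all alternatives. Array weights, lowest at 0.38 for Col-0 replicate 3, turned AT2G40860 (-0.20), TAPX (-0.11), AT1G30870 (0.54), AT2G43620 (0.22), AT2G38870 (0.35), WRKY53 (0.20), STZ (0.26) and LHCB4.2 (-0.071). Median-centring turned TAPX (-0.0042), and adding 16 to the signal turned CHI (0.073).

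Leaving out 1 array, or both replicate 3 arrays, turned the sign of 25 of the 88, with ranges over these fits of -0.13 to 0.25 for GLDH, -0.28 to 0.032 for AT2G04650, -0.38 to 0.48 for AT2G40860, -0.26 to 0.17 for TAPX, -1.53 to 0.21 for AT3G13610, -0.32 to 1.39 for AT5G64120, -0.82 to 1.55 for AT1G30870, -3.09 to 0.88 for CHI, -1.51 to 0.16 for AT2G43610, -1.79 to 1.42 for AT2G43620, -0.38 to 2.57 for AT4G16260, -0.47 to 2.23 for OSM34, -0.58 to 0.86 for AT2G38870, -1.09 to 0.15 for PDF1.4, -0.37 to 2.12 for AT1G72920, -0.51 to 0.098 for AT4G08850, -1.09 to 0.93 for WRKY53, -1.55 to 1.11 for STZ, -2.27 to 0.56 for AT3G10930, -1.68 to 0.39 for CML38, -0.76 to 0.39 for JAL33, -1.29 to 0.54 for XTH18, -1.33 to 0.12 for ATPMEPCRB, -0.44 to 0.75 for psbA and -0.22 to 0.21 for LHCB4.2. The cause of these turns was not tested. Genes near the 40th percentile of signal could not be sized with 3 arrays a group.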

Other observations

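Further classes were given no place in the report. Of 9 tested glutathione transferases, 5 had values above 0 and the median was 0.07 with all arrays and between 0.17 and 0.31 in the other 3 fits. GSTU20, a bright member, had signals of 362, 435 and 425 in Col-0 and 509, 669 and 642 in vtc2-1, with no overlap and a log2 difference of 0.57 ± 0.21. GSTU22 had 24.9, 60.7 and 124 against 127, 143 and 59.2 and rose by 1.79 ± 0.38 without both replicate 3 arrays (limma adjusted p = 0.0464) but not without Col-0 replicate 3 alone (limma adjusted p = 0.124). Chaperones of the endoplasmic reticulum were high in both replicate 3 arrays, with departures of 0.62 in Col-0 and 0.69 in vtc2-1 over 3 tested members. Of these, ATERDJ3B, a co-chaperone, had signals of 271, 272 and 416 in Col-0 and 282, 354 and 510.3 in vtc2-1. The 6 tested genes listed as heat shock proteins had departures of 0.41 and 0.33. That list includes AT5G56020, a vesicle transport protein and not a heat shock protein. Hsp70-2 had 66.3, 72.3 and 139 against 98.1, 81.1 and 143.

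The 10 tested histones had a median of -0.04 with all arrays and between -0.12 and -0.07 in the other 3 fits, and the linker histone AT1G06760 had 448, 516 and 559 in Col-0 and 425, 425 and 410 in vtc2-1, lower in every mutant array. EXGT-A3, a xyloglucan endotransglucosylase, had 1142, 1329 and 869 against 915, 840 and 678, and differed by -0.45 ± 0.18. The 26 UDP-glycosyltransferases had a median of -0.07 with all arrays and between -0.06 and 0.07 in the other 3 fits. The 15 genes listed as cytochrome P450s by symbol had 0.13 and between 0.02 and 0.13. That list includes CYP71, a cyclophilin and not a P450. UGT76C2, a cytokinin glucosyltransferase, had 56.6, 66.0 and 42.8 in Col-0 and 82.6, 84.3 and 83.4 in vtc2-1. None of the genes in this section passed the threshold with all arrays.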
